A study of Mus musculus with 12 samples.

Results

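Macrophages stimulated with LPS and IFN-γ, called M1, were compared between mice lacking Gpr31b and wild-type mice. All rows of the deposited count table that held enough counts were tested. The comparison used 6 of the 12 libraries of the study: 3 from knockout (KO) and 3 from wild-type (WT) cells. All were bone-marrow-derived macrophages, grown from bone marrow to an unstimulated state (M0) and then given LPS and IFN-γ. The other 6 libraries were 3 WT and 3 KO libraries of unstimulated cells. They entered the same statistical model and are quoted only beside values in M1. The labels do not give the mice's age, sex or strain, the deleted part of Gpr31b, the dose or length of stimulation, or whether the libraries of a group came from separate animals. All p-values therefore measure the spread between these libraries, which may be technical. Of the 24552 rows of the table, 9351 held a count in at least 1 M1 library, and 2333 passed the filter on low counts and were tested. The tested rows held 97.6% of all counts in M1.

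Gpr31b encodes mouse GPR31. In human cells this G protein-coupled receptor binds 12(S)-HETE, a lipid made from arachidonic acid by 12-lipoxygenase. LPS acts on macrophages through TLR4 and NF-κB, and IFN-γ through JAK kinases and STAT proteins. Together they turn on cytokines, chemokines, guanylate-binding proteins and enzymes such as nitric oxide synthase 2, the program called classical or M1 activation. Interferons made after TLR4 is engaged add a second wave of genes through their own receptor.

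The sequences shown first belong to the inflammatory rows that the results turn on. The inflammatory row with the highest count was Mir6381, which covers 87 bases at chr3:142623860-142623946 on the minus strand of GRCm38, the build that mm10 names. Its last 24 bases, in capitals, are the reverse complement of an exon of Gbp2, an IFN-γ-induced GTPase gene on the plus strand. The mature miRNA follows with its seed, bases 2 to 8, in capitals. The libraries were made from polyadenylated RNA, so counts in this row are not read here as a level of the mature miRNA. The other 3 sequences are the 250 bases before the start of genes named in the results. They are Gbp2 at chr3:142620413-142620662 on the plus strand, Rsad2 at chr12:26456453-26456702 on the minus strand, and Gbp5 at chr3:142496684-142496933 on the plus strand. Gbp2 is the gene opposite Mir6381, Rsad2 had the lowest p of the inflammatory rows, and Gbp5 had matches to all the motifs searched. Capitals mark these matches. The row sequence is from the GENCODE M21 transcripts, and the others are from RefSeq on GRCm38.
Mir6381: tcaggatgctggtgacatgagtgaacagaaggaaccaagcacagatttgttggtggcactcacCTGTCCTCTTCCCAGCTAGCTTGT
mmu-miR-6381: cAGGAUGCuggugacaugagu
Gbp2: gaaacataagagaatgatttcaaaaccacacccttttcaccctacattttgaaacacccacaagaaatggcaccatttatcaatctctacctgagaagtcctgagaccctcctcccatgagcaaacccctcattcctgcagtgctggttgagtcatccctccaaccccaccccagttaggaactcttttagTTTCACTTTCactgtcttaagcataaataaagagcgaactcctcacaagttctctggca
Rsad2: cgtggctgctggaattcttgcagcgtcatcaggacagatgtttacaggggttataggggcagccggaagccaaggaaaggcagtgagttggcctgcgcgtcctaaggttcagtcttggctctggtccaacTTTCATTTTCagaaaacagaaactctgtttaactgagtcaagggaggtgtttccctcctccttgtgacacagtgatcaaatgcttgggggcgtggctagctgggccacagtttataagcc
Gbp5: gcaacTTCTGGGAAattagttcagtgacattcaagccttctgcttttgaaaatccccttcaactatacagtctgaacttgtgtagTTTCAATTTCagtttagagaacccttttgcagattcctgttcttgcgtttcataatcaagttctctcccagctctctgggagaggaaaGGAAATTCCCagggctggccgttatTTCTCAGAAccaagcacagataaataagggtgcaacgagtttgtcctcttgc
The motifs were TTCNNNGAA, the IFN-γ-activated sequence called GAS, a pair of GAAA tetramers with 2 bases between them, the interferon-stimulated response element (ISRE), and GGG and TTTCC with 2 bases between them, an NF-κB element. Each was searched on both strands, and no marked matches overlap. Of 32851 promoters of this length, 7.02% held the GAS letters, 2.98% the ISRE letters and 1.41% the NF-κB letters. Of 237 promoters of 194 inflammatory genes, 33 (13.9%), 34 (14.3%) and 20 (8.44%) held them. A match is a string of letters and was not tested for binding.

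The M1 libraries held 372878 to 585465 counts, and 4787 to 6059 rows with a count in each. A single count was therefore worth about 2 CPM or more, CPM being counts relative to the TMM-scaled size of their library. Pearson's r on log2 CPM across the 821 tested rows at a mean of 100 CPM or more in M1 ran from 0.951 to 0.981 between libraries of 1 genotype (6 pairs) and from 0.941 to 0.982 between genotypes (9 pairs), as a description. Counts lay mostly in rows that have another gene's exon on the opposite strand. This held for 67 of the 70 rows that averaged at least 1000 counts in M1 (95.7%) and for 2113 of the 14846 matched rows at 0 (14.2%). The library kit marked strand, and whether HTSeq counted that strand or the other is not given in the sources used here. All values are therefore given by row, with an opposite-strand gene named for most rows that have one, and reads of the pair cannot be told apart. The Tsix row, opposite Xist, held 539 counts in WT replicate 2 and 710 in KO replicate 2, and 0 or 1 in each of the other 4 M1 libraries, so both genotypes had 1 such library. It was singled out after its values were seen.

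Of 28 macrophage identity genes, 27 had counts in M1, and Mrc1, the mannose receptor, was at 0. Their own rows summed to 1228 to 1381 CPM in WT and 1045 to 1298 CPM in KO. Of the 28 genes, only 7 had 10 or more counts in every M1 library. All 14 T and NK cell marker rows were at 0 in all 6 libraries, including Cd3e and Ncr1. Of the neutrophil markers, 12 of 14 were at 0, among them Ly6g and Mpo, and the rows summed to 0 to 2.01 CPM in WT and 5.27 to 14.9 CPM in KO. These sums rest on few counts: the highest row, Csf3r, averaged 5.04 CPM, and 0 of the 14 had 10 or more counts in every M1 library. Of the B cell markers 9 of 10 were at 0, with Ms4a1 among them. Of the fibroblast markers 9 of 12 were at 0, of the erythroid and megakaryocyte markers 9 of 13, and of the mast cell markers 9 of 10. Sums of these 4 lists were at most 13.3 CPM in any library. Dendritic cell marker rows summed to 581 to 671 CPM in WT and 527 to 746 CPM in KO. Nearly all of it was in Xcr1, a chemokine receptor at a mean of 594 CPM. Of the 12 dendritic cell markers 5 were at 0, among them Flt3 and Zbtb46, and 1 had 10 or more counts in every M1 library. Some macrophage genes were near 0 as well, with Cd68 at a mean of 11.9 CPM and Tlr4 at 0 in 5 of the 6 libraries. With the strand setting not given, a marker row at 0 does not show that its gene was not expressed. In such bulk samples, fewer cells of a type and less RNA per cell cannot be told apart.

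Gpr31b, at chr17:13051014-13052296 on the minus strand, had 2, 2 and 2 counts in the WT M1 libraries and 0, 0 and 0 in the KO M1 libraries. It was also at 0 in all 6 M0 libraries. Scaled by library size alone, without the TMM factors, the 6 WT counts amount to 4.43 CPM over the group. On that scale, 0 counts in the KO group allow up to 2.31 CPM (3 counts over its libraries, for counting error only). With the TMM factors, the WT M1 libraries stood at 4.02, 6.04 and 6.65 CPM. The counts of the targeted gene go with the genotype labels in all 6 M1 libraries but rest on 2 counts in each WT library. Over all rows of the 6 M1 libraries, 62.4% of the counts from 1 to 12 were even. Whether 2 counts stand for 1 fragment, or come from the gene's own strand, was not tested. The Gpr31b counts are too low for the filter, and no fold change is given. Of the rows within 10 Mb of Gpr31b, 16 were tested. None of them had an unadjusted p under 0.05, and their log2 fold changes ran from −0.70 to 1.33.

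No row was called between KO and WT in M1 by the unpaired test. edgeR's quasi-likelihood test called 0 of 2333 rows (0%) at a Benjamini-Hochberg adjusted p under 0.05, and the smallest adjusted p was 0.290. The unadjusted p was under 0.05 for 164 rows (7.03%), 102 higher in KO (4.37%) and 62 lower (2.66%). DESeq2 and limma-voom also called 0 rows, with 152 and 149 at an unadjusted p under 0.05. With the replicate number as a block in the 6 M1 libraries, edgeR called 2 rows, both lower in KO, Gm14023 and Mid1 (adjusted p = 0.0192 for each). The KO and WT libraries did not overlap in 252 rows (10.8%), with KO above in 139 (5.96%) and below in 113 (4.84%). The median log2 fold change over all tested rows was 0.00.

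How large an effect the data leave room for depended on the level of a row. A row is called bounded here when the 95% interval of its log2 fold change lay inside a 2-fold rise and a 2-fold fall. Of all tested rows 913 (39.1%) were bounded, and 469 (20.1%) also within 1.5-fold. At 100 CPM or more, 758 of 821 rows (92.3%) were bounded within 2-fold and 468 (57%) within 1.5-fold. Below 30 CPM, 2 of 764 rows were. The median half-width of the interval was 1.65 on the log2 scale below 30 CPM and 0.22 at 1000 CPM or more. The plot of fold change against level shows this funnel. In it, no row above 1000 CPM reaches a 2-fold difference.

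**Figure D1:**
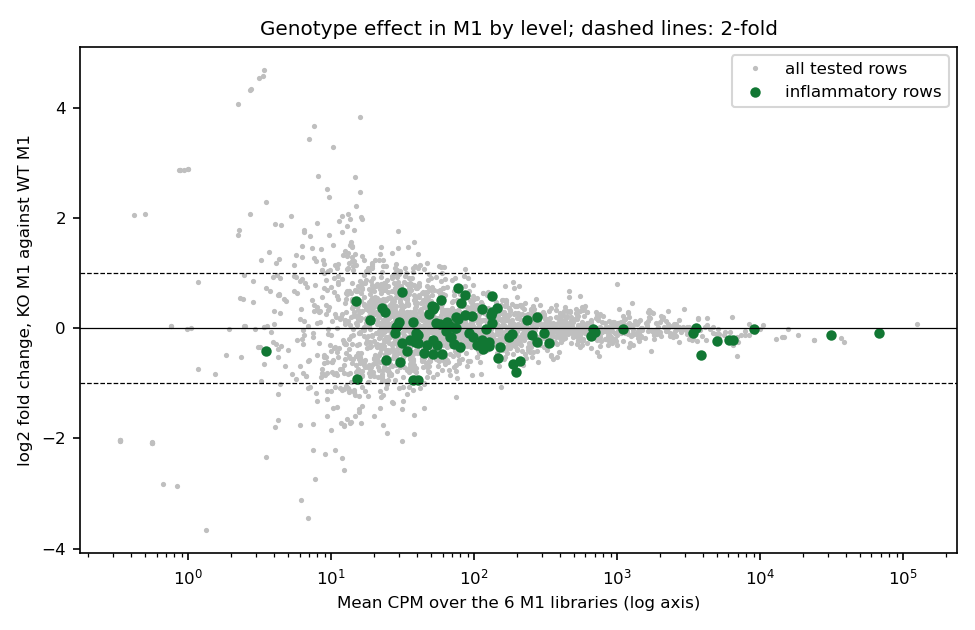
Each point is 1 tested row, with its mean CPM over the 6 M1 libraries on a log axis and its log2 fold change, KO M1 against WT M1. Green points are the inflammatory rows, which run from −0.94 to 0.73, and dashed lines mark 2-fold.

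The M1 transcriptome was concentrated in a few rows. A bracketed value with its SE after a row's levels is the log2 fold change of that row, KO M1 against WT M1. The 20 rows with the highest mean CPM held 41.6% of all M1 counts, and 19 of them have an exon of another gene on the opposite strand. CPM is not divided by length, so the order is one of counts and not of molecules. AV051173 led with 116934, 134720 and 114212 CPM in the WT libraries and 111808, 153617 and 120020 CPM in the KO libraries, or 9.21% to 13.1% of a library's counts. RefSeq places this noncoding gene at chr4:116684962-116686022, across the start of Prdx1, a peroxiredoxin that removes peroxides. The libraries of the genotypes overlapped, and the log2 fold change was 0.08 ± 0.14 (SE). In M0 the row was at 7688 to 13676 CPM. The plot of the 20 highest rows shows each library.

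**Figure D2:**
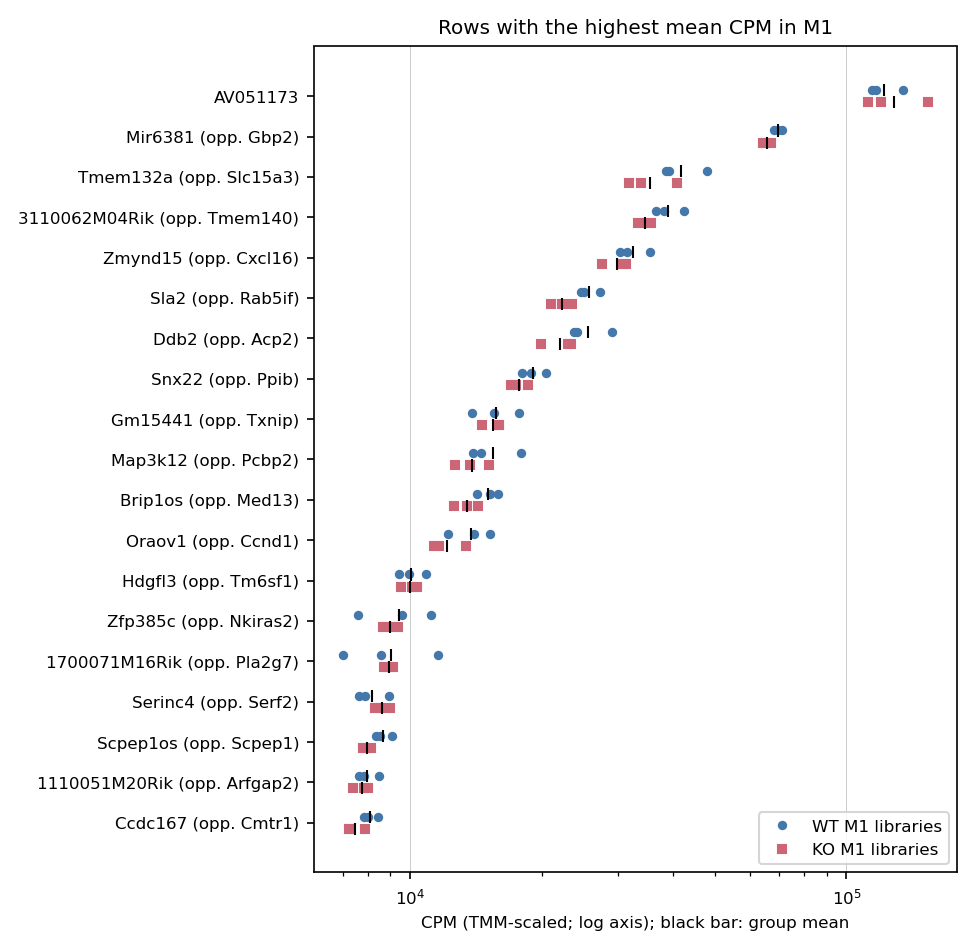
Each point is the CPM of 1 library on a log axis, blue circles for WT M1 and red squares for KO M1, and black bars are means of 3 libraries. Rows are labelled with the first gene whose exon lies opposite (opp.), 1 of the 20 rows is left out, and the log2 fold changes of the 20 run from −0.24 to 0.08.

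Mir6381 was the row with the second-highest level, at 69534, 71001 and 68246 CPM in the WT libraries and 67296, 65468 and 64306 CPM in the KO libraries. All KO libraries lay below all WT libraries, by a log2 fold change of −0.08 ± 0.10 (SE) (adjusted p = 0.935, edgeR). This separation is one of TMM-scaled values. As a share of all counts the row took 5.91, 5.95 and 5.50% of the WT libraries and 5.71, 5.58 and 5.60% of the KO libraries, so WT replicate 3 lay below every KO library, and with library size alone the log2 fold change was −0.04. In the TMM fit, its 95% interval leaves room for a fall of up to 1.23-fold and a rise of up to 1.09-fold. In M0 the row was at 108 to 202 CPM. Tmem132a, opposite the lysosomal peptide and histidine transporter gene Slc15a3, held 39198, 38497 and 47799 CPM in the WT libraries and 40776, 31773 and 33780 CPM in the KO libraries. The genotypes overlapped there, because KO replicate 1 lay above WT replicates 1 and 2. 3110062M04Rik, opposite Tmem140, held 38169, 36509.5 and 42389.8 CPM in WT and 35597, 33195 and 34602 CPM in KO, with no overlap.

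Zmynd15, opposite the membrane-anchored chemokine gene Cxcl16, held 30269, 31465 and 35517 CPM in WT and 31194, 30749 and 27571 CPM in KO. Sla2, opposite Rab5if, held 24666, 25065 and 27146 CPM in WT and 23524, 22221 and 21047 CPM in KO. Ddb2, opposite the lysosomal acid phosphatase gene Acp2, held 24059.6, 23669 and 29026 CPM in WT and 23364, 19909 and 22974 CPM in KO. KO libraries lay below WT libraries without overlap in the Sla2 and Ddb2 rows, and overlapped with them in Zmynd15. Of the 20 rows, 4 had an unadjusted p under 0.05, all lower in KO, against 2.66% of all tested rows on that side: Tmem132a (−0.24 ± 0.09 (SE), unadjusted p = 0.00952), 3110062M04Rik (−0.18 ± 0.07 (SE), unadjusted p = 0.0174), Sla2 (−0.20 ± 0.08 (SE), unadjusted p = 0.0113) and Ddb2 (−0.21 ± 0.08 (SE), unadjusted p = 0.0128), from edgeR's model across all rows. Each had an adjusted p of 0.525. These 4 intervals reached at most a fall of 1.33-fold.

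The other 13 of these rows had means from 7774 to 18423 CPM. Snx22 lies opposite Ppib, an endoplasmic reticulum prolyl isomerase, and had a log2 fold change of −0.11 ± 0.08 (SE). Gm15441 lies opposite Txnip, the inhibitor of thioredoxin (−0.02 ± 0.10 (SE)), and Oraov1 opposite Ccnd1, cyclin D1 (−0.19 ± 0.20 (SE)). 1700071M16Rik lies opposite Pla2g7, which degrades platelet-activating factor. Its WT libraries spread from 7016 to 11544 CPM while its KO libraries lay between 8694 and 9141 CPM. The remaining rows included Map3k12 (opposite Pcbp2), Brip1os (Med13 and Ints2), Hdgfl3 (Tm6sf1), Zfp385c (Nkiras2), Serinc4 (Serf2 and Hypk), Scpep1os (Scpep1), 1110051M20Rik (Arfgap2) and Ccdc167 (Cmtr1). All 20 rows were bounded within 2-fold and 18 within 1.5-fold, and 17 had a negative log2 fold change, with a median of −0.11, against 107 negative of all 181 rows at 1000 CPM or more. Scaled by library size alone, 13 of the 20 were negative and the median was −0.07, while the median of all tested rows was 0.05.

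No row passed the adjusted threshold, so the 8 rows with the smallest p in each direction are described. All have a mean of 5 CPM or more in an M1 group and KO and WT libraries that do not overlap, and all missed the threshold. Their separation and their p come from the rule that chose them and are given as a description. Zfhx2os, opposite the homeobox gene Zfhx2, held 151, 106 and 143 CPM in the WT libraries and 169, 298 and 255 CPM in the KO libraries. Its log2 fold change was 0.85 ± 0.22 (SE) (unadjusted p = 0.000429, adjusted p = 0.29, edgeR). Phospho1, opposite the actin-regulating adaptor gene Abi3, held 48.2, 54.4 and 26.6 CPM in WT and 68.3, 84.3 and 93.3 CPM in KO, a log2 fold change of 0.90 ± 0.24 (SE). Slc24a5, a cation exchanger gene opposite Myef2, held 466, 453 and 403 CPM in WT and 683, 648 and 653 CPM in KO. This is 0.58 ± 0.15 (SE) on the log2 scale, with a narrow spread in both groups: 441 ± 33.6 CPM in WT and 662 ± 19.2 CPM in KO (mean ± SD, n = 3 each).

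Mrps25, for a mitochondrial ribosome protein and opposite the nuclear receptor gene Nr2c2, was the most abundant of the 8 rows, at 2536, 2854 and 2369 CPM in WT and 2918, 3409.5 and 3590.2 CPM in KO (0.35 ± 0.09 (SE)). Narfl, for an iron-sulfur protein assembly factor and opposite Haghl, held 163, 190.3 and 106 CPM in WT and 208, 253 and 323 CPM in KO (0.76 ± 0.21 (SE)). Wdr48, for a partner of the deubiquitinase USP1 and opposite Gorasp1, held 40.2, 45.3 and 29.9 CPM in WT and 92.1, 103 and 58 CPM in KO (1.11 ± 0.31 (SE)). The lowest of these KO libraries lay within 1.5 times the highest WT library in all 3 rows. Atg7, for the E1-like enzyme of autophagy, held 239, 248 and 169.7 CPM in WT and 259, 374 and 328 CPM in KO (0.54 ± 0.16 (SE)). An exon of Atg7 lies 14 bases past the 3′ end of Vgll4, a gene on the opposite strand. Which strand the counts of this row come from was not tested. Pqlc3 had 1, 0 and 0 counts in WT and 6, 2 and 8 counts in KO, so its fitted log2 fold change of 3.67 ± 1.57 (SE) rests on few counts. Among these 8 rows, all M0 libraries lay above all M1 libraries in Phospho1, Mrps25, Narfl, Wdr48, Pqlc3 and Atg7. The share of all tested rows with this order was not counted, so it is not read as a trait of these rows. Pqlc3 did not pass the filter in the fit of the 6 M1 libraries alone, so its M0 counts brought it into the test. Atg7 was at 1291 to 1687 CPM in M0 and Phospho1 at 829.96 to 1048 CPM. In the unpaired fit, the interaction of genotype with stimulation was not called for any of the 8 (adjusted p from 0.255 to 0.875, edgeR).

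Among rows lower in KO, Sphk2, for a sphingosine kinase and opposite Dbp and Rpl18, had the smallest p. It held 211, 190.3 and 263 CPM in the WT libraries and 157, 89.5 and 169 CPM in the KO libraries, a log2 fold change of −0.67 ± 0.18 (SE) (unadjusted p = 0.000829, adjusted p = 0.29, edgeR). Mid1, for a microtubule-bound ubiquitin ligase, lies on chromosome X opposite 3 noncoding genes. The Mid1 row held 199, 224 and 206 CPM in WT and 53.5, 97.4 and 146 CPM in KO (−1.07 ± 0.34 (SE)). Its WT libraries were close together and its KO libraries spread over 99.1 ± 46.4 CPM (mean ± SD, n = 3). The Mid1 row passed the threshold in 1 of the fits with replicate number as a block, given with the pairing. Efhd2, for a calcium-binding actin regulator, held 100.5, 112 and 99.8 CPM in WT and 68.3, 29 and 35.3 CPM in KO (−1.24 ± 0.40 (SE)). Nkx6-2, a homeobox gene opposite the phosphatase gene Inpp5a, held 141, 129.9 and 159.7 CPM in WT and 71.3, 68.5 and 101 CPM in KO (−0.83 ± 0.26 (SE)). KO replicates 1 and 2 were the lower pair in the Nkx6-2 row.

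Apoe, the apolipoprotein of macrophages that carries cholesterol out of the cell, held 442, 365 and 396 CPM in WT and 365, 266 and 219 CPM in KO (−0.51 ± 0.17 (SE), 95% interval −0.85 to −0.17). The highest KO library and the lowest WT library of Apoe were nearly equal. Dnm2, for the endocytic GTPase dynamin 2 and opposite Tmed1, held 414, 450.1 and 406 CPM in WT and 327, 237 and 295 CPM in KO (−0.57 ± 0.18 (SE)). Ssh1, for a cofilin phosphatase, held 54.3, 51.3 and 73.2 CPM in WT and 44.6, 21.1 and 22.7 CPM in KO (−1.02 ± 0.36 (SE)). Cog4, for a Golgi tethering protein and opposite the splicing factor gene Sf3b3, held 285, 320.2 and 293 CPM in WT and 223, 192 and 212 CPM in KO (−0.52 ± 0.18 (SE)). Adjusted p for these 8 rows ran from 0.290 to 0.525, and interaction adjusted p from 0.177 to 0.872, both from edgeR's unpaired fit. In Sphk2, Apoe and Ssh1 all M0 libraries lay above all M1 libraries, and in Mid1 and Dnm2 below. The share of all tested rows with either order was not counted. The plot of these 16 rows gives each library.

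**Figure D3:**
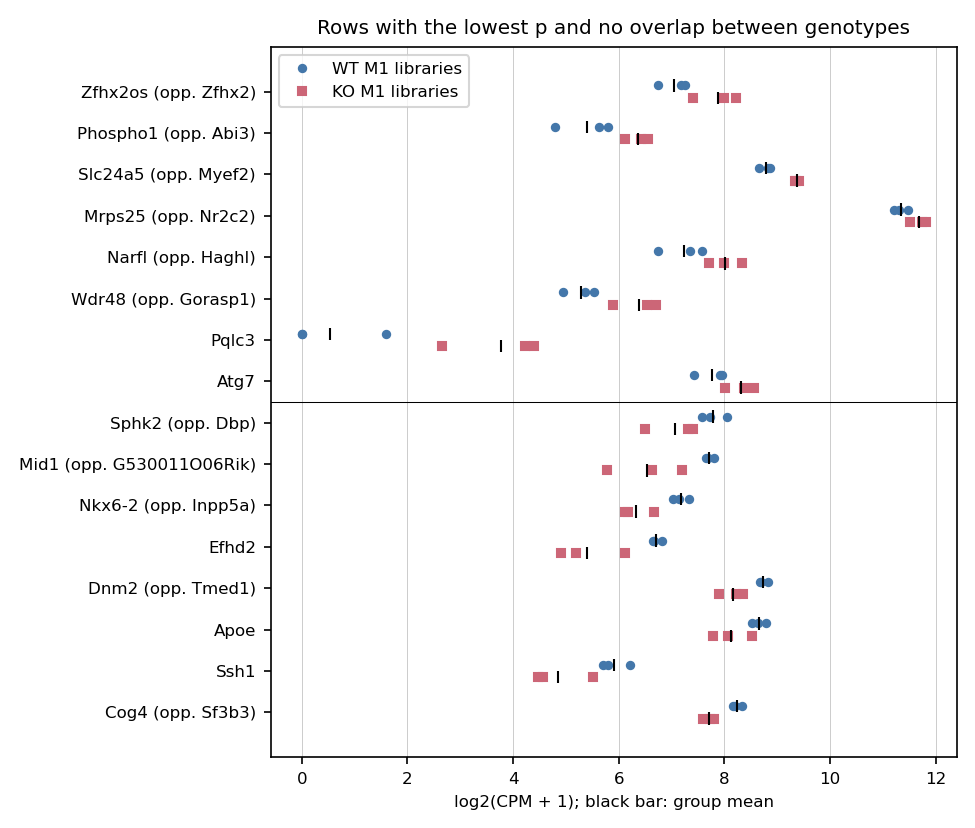
Each point is 1 library as log2(CPM + 1), blue circles for WT M1 and red squares for KO M1, with black bars at the mean of 3 libraries. The 8 rows above the line have log2 fold changes from 0.35 to 3.67 and the 8 below it from −1.24 to −0.51, and in each the groups do not overlap by the rule that chose them.

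The inflammatory rows were taken from 7 gene lists with 258 genes: IFN-γ targets, type I interferon targets, cytokines, chemokines, activation enzymes, pattern recognition, and signalling. Of these genes, 255 are in the table, 36 had no count in any M1 library, and 93 rows were tested. They are 73 rows of the genes themselves and 23 rows with an opposite-strand exon of a member, 3 of which count as both. None was called. Against 4.37% and 2.66% of all tested rows, 0 of the 93 had an unadjusted p under 0.05 with KO higher and 2 with KO lower. The latter were Rsad2 and Slfn5os. Log2 fold changes ran from −0.94 to 0.73, with 35 positive, 57 negative and a median of −0.09, against 0.00 over all tested rows. The median ran from −0.18 to −0.00 as each library was left out in turn, the value nearest 0 being that without WT replicate 1.

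These rows took 12.6, 12.5 and 12.8% of the counts of the WT M1 libraries and 12.3, 11.9 and 12% of the KO M1 libraries. All 3 KO libraries lay below all 3 WT libraries in this share. Without Mir6381 the shares were 6.72, 6.51 and 7.29% in WT and 6.54, 6.33 and 6.42% in KO, and the groups overlapped. Scaled by TMM, the sum with Mir6381 was 148570 to 158687 CPM in WT and 138039 to 144493 CPM in KO. No test is given for this sum. Over all M1 counts, rows opposite a member took 11.7% and rows of the genes themselves 1.02%, with rows that are both counted in each.

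Of the 93 inflammatory rows, 34 (36.6%) were bounded within 2-fold and 13 within 1.5-fold, against 39.1% and 20.1% of all tested rows. By 2 one-sided tests for a change under 2-fold, adjusted over all tested rows, 28 passed, against 37.2% of all rows. The count of bounded rows was 21 without WT replicate 1 and 22 without KO replicate 2. With all libraries, the 2 kinds of row differed, rows that are both being counted in each. Of the 73 rows of the genes themselves, 21 (28.8%) were bounded within 2-fold and 5 within 1.5-fold. Of the 23 rows opposite a member, 15 (65.2%) were bounded within 2-fold and 9 within 1.5-fold. At 100 CPM or more, 27 of 38 inflammatory rows were bounded within 2-fold (71.1%, against 92.3% of all rows there) and 13 within 1.5-fold (34.2%, against 57%). Of 24 rows of the genes themselves at that level, 16 were bounded within 2-fold and 5 within 1.5-fold (20.8%). Of 16 rows opposite a member, 13 were bounded within 2-fold and 9 within 1.5-fold (56.25%). The median SE of these 38 rows was 0.286 on the log2 scale, against 0.187 for all rows at that level. At 1000 CPM or more, 9 of 10 inflammatory rows were bounded within 2-fold and 8 within 1.5-fold, and the median half-width was 1.18-fold. From 30 to 100 CPM, 7 of 44 rows were bounded, and below 30 CPM 0 of 11. The plot of interval half-width shows the inflammatory rows within or above the band of other rows of their level.

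**Figure D4:**
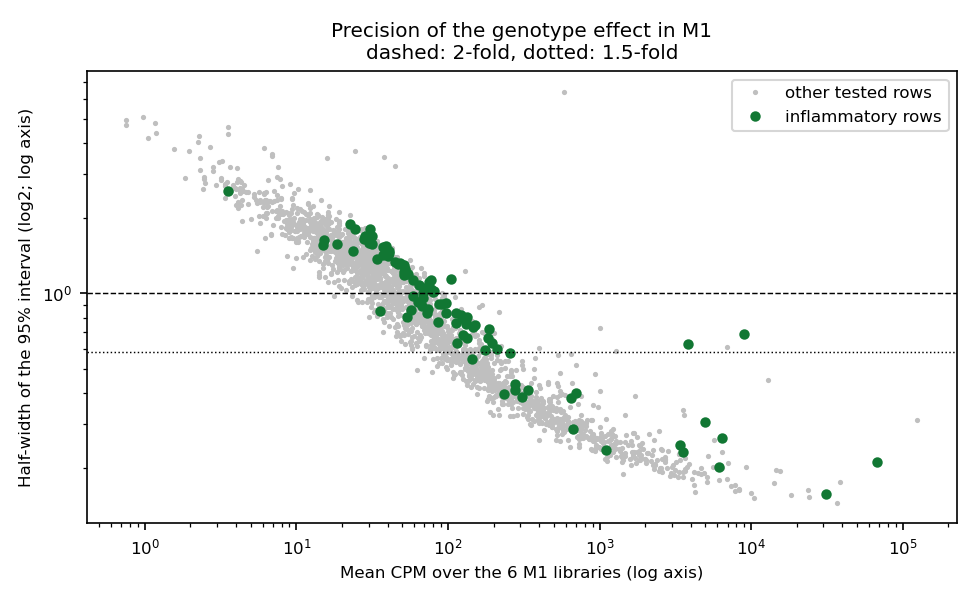
Each point is 1 tested row with a finite interval, with its mean CPM over the 6 M1 libraries and the half-width of the 95% interval of its log2 fold change, both on log axes. The dashed line is 2-fold and the dotted line 1.5-fold, and the median half-width of inflammatory rows is 1.67 below 30 CPM and 0.24 at 1000 CPM or more.

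**Figure D5:**
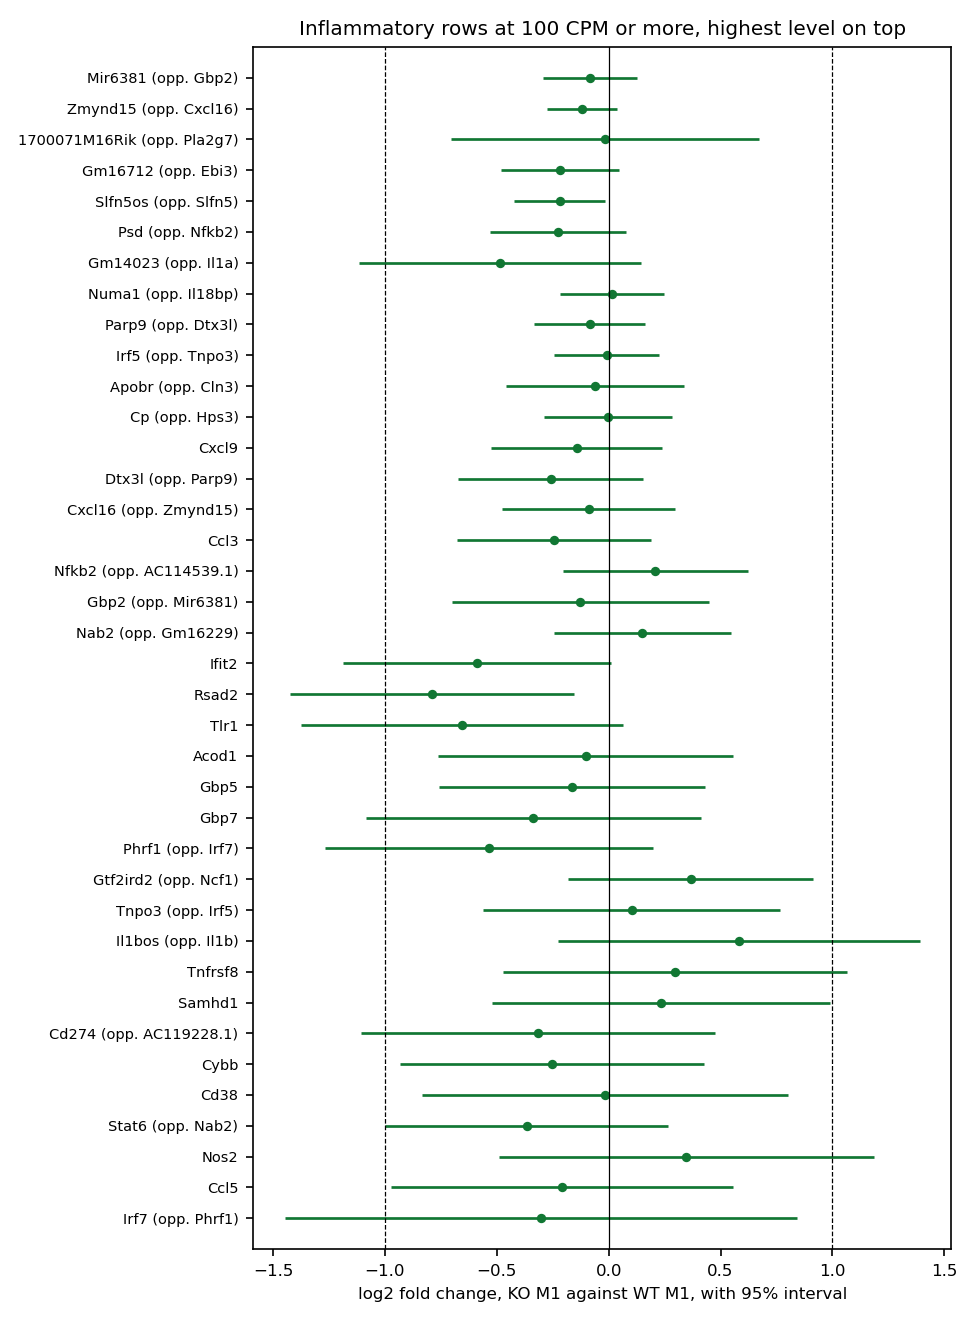
Points are log2 fold changes, KO M1 against WT M1, and lines are 95% intervals of the 38 inflammatory rows at 100 CPM or more, with the highest level on top. The dashed lines mark 2-fold, and 27 of the 38 intervals lie between them.

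IFN-γ targets had 17 tested rows, 0 of them called. 4 had a positive and 13 a negative log2 fold change, with a median of −0.14. Without WT replicate 1 that median was 0.06. Beside Mir6381, the highest row was Numa1, for a spindle protein and opposite Il18bp, the decoy receptor of IL-18, at 3689.7, 3658 and 3197 CPM in the WT libraries and 3339.8, 3725 and 3583 CPM in the KO libraries. The groups overlapped, and the interval allowed at most a 1.19-fold rise or a 1.16-fold fall. Cxcl9, a chemokine that draws CXCR3-bearing T cells, held 799.8, 731 and 519 CPM in WT and 704, 671 and 489 CPM in KO and no count in M0. Its log2 fold change was −0.14 ± 0.19 (SE), bounded by a 1.18-fold rise and a 1.44-fold fall. The Gbp2 row itself held 303, 311 and 183 CPM in WT and 149, 329 and 255 CPM in KO (−0.13 ± 0.28 (SE)). Gbp5, a guanylate-binding protein that promotes inflammasome assembly, held 235, 181 and 139.7 CPM in WT and 175, 187 and 139 CPM in KO (−0.16 ± 0.29 (SE)). Of 7 rows at 100 CPM or more, 5 were bounded within 2-fold. Gbp7 (−0.34 ± 0.37 (SE)) and Cd274, for PD-L1 and opposite AC119228.1 (−0.32 ± 0.39 (SE)), were the other two.

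Type I interferon targets had 20 tested rows, 6 positive and 14 negative, with a median of −0.18, and 0 were called. Rsad2, for the antiviral enzyme viperin, held 297, 157 and 289 CPM in the WT libraries and 146, 147 and 139 CPM in the KO libraries. All KO libraries lay below all WT libraries, but WT replicate 2 was within 10 CPM of the highest KO library. Its log2 fold change was −0.79 ± 0.31 (SE) (unadjusted p = 0.0166, adjusted p = 0.525, edgeR), the lowest p of the inflammatory rows. The 95% interval of −1.42 to −0.15 was wide enough for a fall of 2.68-fold. Its adjusted p under the alternatives ran from 0.226 to 0.947. Ifit2, for an RNA-binding protein that limits viral translation, held 225, 184 and 346 CPM in WT and 163, 200.1 and 136 CPM in KO (−0.59 ± 0.29 (SE)), with overlap. Slfn5os, opposite Unc45b and Slfn5, a member of the Schlafen family, held 6847, 6419 and 6401 CPM in WT and 5910.1, 5387 and 5611 CPM in KO without overlap (−0.22 ± 0.10 (SE), unadjusted p = 0.0361, adjusted p = 0.647).

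Parp9 and Dtx3l lie opposite each other at their starts and encode partners in ADP-ribosylation and ubiquitylation. Parp9 held 3865, 3607 and 3061 CPM in WT and 3518, 3130.4 and 3287 CPM in KO (−0.09 ± 0.12 (SE)) and Dtx3l 414, 329 and 353 CPM in WT and 247, 350.2 and 320.4 CPM in KO (−0.26 ± 0.20 (SE)). Both sets of libraries overlapped. Beside Slfn5os, Parp9 and Dtx3l, the bounded rows of this list were Samhd1, for an enzyme that degrades dNTPs, Eif2ak2, for the double-stranded RNA-activated kinase PKR and opposite 2 noncoding genes, and Slfn5. Samhd1 was at a mean of 131 CPM, with a log2 fold change of 0.24 ± 0.37 (SE). The interval reached a 1.8-fold rise and a 1.78-fold fall for Eif2ak2, and a 1.6-fold rise and a 1.98-fold fall for Slfn5. The other 14 rows were not bounded. Mx1, for a dynamin-like antiviral GTPase, was at a mean of 29 CPM (0.05 ± 0.81 (SE)) and Ifit1 at 40.7 CPM (−0.12 ± 0.71 (SE)). Irf7, the interferon regulatory factor, was at 131, 151 and 66.5 CPM in WT and 101, 97.4 and 85.8 CPM in KO (−0.30 ± 0.55 (SE)), and Phrf1 on the opposite strand at 187, 142 and 189.6 CPM in WT and 107, 142 and 108 CPM in KO (−0.54 ± 0.36 (SE)). Of 8 rows at 100 CPM or more, 4 were bounded within 2-fold.

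Cytokines and their receptors had 11 tested rows, 5 positive and 6 negative, and 11 of the list's 40 genes had no M1 count. Gm16712, opposite Yju2 and Ebi3, the shared subunit of IL-27 and IL-35, was highest at 6961, 5947 and 7894 CPM in the WT libraries and 5788, 5084 and 7014 CPM in the KO libraries (−0.22 ± 0.13 (SE)). Gm14023, opposite Il1a, held 3822, 3440.4 and 6148 CPM in WT and 3833, 2606 and 3144 CPM in KO, against 45.6 to 101 CPM in M0. WT replicate 3 was far above the other 5 libraries, and the log2 fold change was −0.48 ± 0.28 (SE), from a 1.11-fold rise to a 2.16-fold fall. With the replicate number as a block in the 6 M1 libraries, the Gm14023 row was called, with a log2 fold change of −0.47 ± 0.10 (SE) and an adjusted p of 0.0192. By number, its KO library stood at 0.00, −0.40 and −0.97 on the log2 scale against its WT library. The SE and adjusted p of this call rest on a spread shared across rows. They do not measure the spread of these differences alone. With the block in all 12 libraries, 0 rows were called.

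Il1bos, opposite the gene of IL-1β, held 127, 124 and 66.5 CPM in WT and 149, 118 and 212 CPM in KO, and the Il1b row 32.2, 57.4 and 56.6 CPM in WT and 74.3, 65.8 and 65.6 CPM in KO. In Il1b all KO libraries lay above all WT libraries, with a log2 fold change of 0.51 ± 0.55 (SE) and an interval of −0.62 to 1.64. Apobr, opposite Il27 and Cln3, was at 866, 556 and 732 CPM in WT and 849.8, 508 and 714 CPM in KO (−0.06 ± 0.20 (SE)). Tnfrsf8, the gene of CD30, held 131, 66.5 and 159.7 CPM in WT and 119, 129 and 189 CPM in KO (0.30 ± 0.38 (SE)). Cytokine rows often used to describe M1 cells were too low to test. Tnf had 10, 0 and 4 counts in WT and 0, 10 and 5 in KO. Il12b had 4 counts in KO replicate 3 and 0 in each of the other 5 libraries, and Il6 had 0 in all 6. No genotype effect on these 3 genes can be read from these rows, and whether depth or the strand counted keeps the rows low was not tested.

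Chemokines and their receptors had 7 tested rows, 1 positive and 6 negative, with a median of −0.14 and 0 called. The Zmynd15 row, given above, was bounded by a 1.03-fold rise and a 1.21-fold fall. The Cxcl16 row held 322, 302 and 333 CPM in WT and 365, 245 and 290.1 CPM in KO (−0.09 ± 0.19 (SE)). Ccl3, for a chemokine that draws monocytes, held 241, 251 and 409 CPM in WT and 273, 182 and 298 CPM in KO (−0.25 ± 0.21 (SE)). It was at 286 to 381 CPM in M0. Ccl5, for a chemokine that draws T cells and monocytes, held 107, 121 and 136 CPM in WT and 107, 103 and 103 CPM in KO (−0.21 ± 0.37 (SE)), and had no count in M0. Cxcl10, opposite Art3, held 90.4, 75.5 and 36.6 CPM in WT and 56.5, 163 and 63.1 CPM in KO, with KO replicate 2 above all others, and an interval from −0.56 to 1.48. The 5 rows at 100 CPM or more were all bounded within 2-fold.

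Activation enzymes and lipid mediators had 19 tested rows, 9 positive and 9 negative, with 1 row that had no M1 count. Cp, for the copper oxidase ceruloplasmin and opposite Hps3, was the tightest of the named ones: 659, 704 and 659 CPM in WT and 675, 639.8 and 701 CPM in KO, and a change of more than 1.22-fold in either direction lay outside the interval. Acod1, which makes itaconate, held 261, 163 and 146 CPM in WT and 155, 219 and 164 CPM in KO (−0.10 ± 0.32 (SE)). Nos2, for inducible nitric oxide synthase, held 155, 63.4 and 76.5 CPM in WT and 113, 174 and 95.9 CPM in KO (0.35 ± 0.41 (SE)), so that its interval reached a 2.27-fold rise and a 1.4-fold fall. Ptgs2, for cyclooxygenase 2, held 100.5, 42.3 and 126 CPM in WT and 62.4, 139.5 and 111 CPM in KO (0.22 ± 0.45 (SE)). In all 3 of these rows a WT library was above and another below the mean of the KO libraries. The phagocyte NADPH oxidase, which makes superoxide, was read from the rows of Cybb, Ncf1 and Cyba and the row opposite Ncf1. Cybb held 111, 172 and 129.7 CPM in WT and 98.1, 153 and 93.3 CPM in KO (−0.25 ± 0.33 (SE)). Gtf2ird2, opposite Ncf1, held 121, 148 and 106 CPM in WT and 175, 161 and 149 CPM in KO, without overlap (0.37 ± 0.27 (SE)). The Ncf1 row itself was at a mean of 37.5 CPM (0.12 ± 0.70 (SE)), and its libraries overlapped. Cyba held 80.4, 63.4 and 59.9 CPM in WT and 113, 147 and 55.5 CPM in KO (0.61 ± 0.38 (SE), unadjusted p = 0.114, adjusted p = 0.834, edgeR), the lowest p of the inflammatory rows on the higher side.

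Pattern recognition genes had 6 tested rows, 3 positive and 3 negative, and 0 of them were bounded within 2-fold. Tlr1, which with TLR2 binds bacterial lipopeptides, held 237, 196 and 253 CPM in the WT libraries and 149, 94.8 and 192 CPM in the KO libraries. All KO libraries lay below all WT libraries, with a log2 fold change of −0.66 ± 0.35 (SE) (unadjusted p = 0.0732, adjusted p = 0.796, edgeR). Clec4n, the gene of Dectin-2, held 66.3, 66.5 and 73.2 CPM in WT and 56.5, 50 and 42.9 CPM in KO (−0.46 ± 0.48 (SE)), again without overlap. Aim2, a sensor of cytosolic DNA, held 68.3, 51.3 and 119.8 CPM in WT and 53.5, 55.3 and 85.8 CPM in KO (−0.28 ± 0.52 (SE)), and Cd14, the LPS co-receptor, 64.3, 66.5 and 69.9 CPM in WT and 80.2, 73.7 and 53 CPM in KO (0.04 ± 0.49 (SE)). Twf1, opposite Irak4, had a mean of 23.7 CPM and an interval of −1.17 to 1.78. Tlr4, the LPS receptor, had 4 counts in KO replicate 2 and 0 in each of the other 5 M1 libraries, and was not tested.

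The signalling list (NF-κB, AP-1 and JAK-STAT) had 16 tested rows, 8 positive and 8 negative, with a median of 0.05 and 0 called. Psd, opposite Nfkb2, the precursor of NF-κB p52, held 5352, 4479 and 6334 CPM in the WT libraries and 4918, 4039 and 4857 CPM in the KO libraries (−0.23 ± 0.15 (SE)). The Nfkb2 row held 273, 257 and 233 CPM in WT and 321, 298 and 267 CPM in KO (0.21 ± 0.20 (SE)). Irf5, a transcription factor of M1 polarization opposite Tnpo3, held 1158, 1093 and 1075 CPM in WT and 1132, 1129 and 1047 CPM in KO, with at most a 1.17-fold rise or a 1.18-fold fall inside the interval. The Tnpo3 row held 105, 93.6 and 189.6 CPM in WT and 157, 116 and 139 CPM in KO (0.10 ± 0.33 (SE)), and Nab2, opposite Stat6, held 201, 214 and 249.5 CPM in WT and 259, 226 and 249.8 CPM in KO (0.15 ± 0.19 (SE)). Of 6 rows at 100 CPM or more, all 6 were bounded within 2-fold.

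Other programs of M1 cells also held no called row. MHC class I presentation had 17 tested rows, 10 positive and 7 negative, and 9 of 10 rows at 100 CPM or more were bounded within 2-fold. Its highest row was Tap1, for the peptide transporter and opposite the immunoproteasome gene Psmb9, at a mean of 652 CPM (0.11 ± 0.27 (SE)). B2m was at −0.33 ± 0.28 (SE) and H2-K1 at 0.12 ± 0.26 (SE). H2-T24 had the only unadjusted p under 0.05 of the list, at 1.19 ± 0.47 (SE) and a mean of 46.4 CPM (unadjusted p = 0.016, edgeR). MHC class II and costimulation had 7 tested rows, with Cd74, the invariant chain, at −0.08 ± 0.41 (SE) and H2-Ab1 at −0.14 ± 0.50 (SE). Cd86 had 10, 8 and 12 counts in WT and 0, 11 and 8 in KO, and was not tested. Lysosomal genes had 29 tested rows, 11 positive and 17 negative, of which 9 of 14 at 100 CPM or more were bounded. The Ddb2 row and 3110002H16Rik, opposite Npc1 (−0.42 ± 0.17 (SE), unadjusted p = 0.0242), had the only unadjusted p under 0.05, both lower.

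Glycolysis and HIF-1 genes had 16 tested rows, 10 positive and 6 negative. Pfkm, a phosphofructokinase gene, had the list's only unadjusted p under 0.05 (0.88 ± 0.43 (SE), unadjusted p = 0.049). Gapdh, opposite Iffo1 (0.03 ± 0.48 (SE)), and Ldha (0.30 ± 0.61 (SE)) were below 100 CPM, as were 13 of the 16 rows. Redox genes had 15 tested rows, 9 positive and 6 negative, and all 5 rows at 100 CPM or more were bounded, among them Fth1, the ferritin heavy chain (−0.08 ± 0.27 (SE)), and Prdx1 (0.26 ± 0.26 (SE)). Cell cycle genes had 10 tested rows, 2 positive and 8 negative, with Ccna2 at −0.21 ± 0.13 (SE). Exosc9, opposite Ccna2, had the only unadjusted p under 0.05 of that list, at a mean of 6.16 CPM. Of the macrophage identity list 22 rows were tested, 8 positive and 14 negative. Apoe had an unadjusted p under 0.05 there, and so did Cebpa, opposite Gm45091, whose WT libraries were all at 0. Of the 17 genes of the lipoxygenase pathway of GPR31, 8 had no M1 count and 1, Gnai2, for an inhibitory G protein subunit, was tested (0.50 ± 0.46 (SE)). Alox15 was at 0 in all 6 libraries, and Alox12 had 0, 1 and 1 counts in WT and 0, 6 and 1 in KO.

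In M0 the same model called 1 of 2333 rows (0.0429%), with 151 (6.47%) at an unadjusted p under 0.05. The called row was Perm1, a regulator of muscle mitochondrial genes, with a log2 fold change of 0.79 ± 0.16 (SE) in M0 (adjusted p = 0.0479, edgeR) and levels of 109 to 239 CPM in M0. An exon of Perm1 lies 149 bases past the 3′ end of Plekhn1, a gene on the opposite strand. Which strand the counts of this row come from was not tested. In M1 the Perm1 row held 1947, 1389 and 1487 CPM in WT and 1795, 2169 and 1882 CPM in KO, which overlapped (0.27 ± 0.13 (SE)). The difference between these states was not called for Perm1 (interaction adjusted p = 0.627, edgeR). For the interaction, 0 of 2333 rows (0%) were called, with 144 (6.17%) at an unadjusted p under 0.05. The interaction was fitted only without the replicate number as a block. The labels do not say whether M0 and M1 libraries of a number share cells, and pairing them was not tested for the interaction. Of the rows at an unadjusted p under 0.05, 16 were shared by the states. This is 9.76% of the M1 list and 10.6% of the M0 list, and 11 of the 16 had the same direction.

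Pairing the libraries by replicate number changed which rows passed. With the number as a block in the 6 M1 libraries, 2 rows were called, both lower in KO: Gm14023, described with the cytokines, and Mid1 (−1.15 ± 0.27 (SE), adjusted p = 0.0192, edgeR). By number, the Mid1 row of each KO library stood at −1.90, −1.20 and −0.50 on the log2 scale against its WT library. As for Gm14023, the SE and adjusted p rest on a spread shared across rows and not on these differences alone. Without KO replicate 1, the row 4931431C16Rik, opposite the peroxisomal oxidase gene Acox3, was called (0.58 ± 0.12 (SE), adjusted p = 0.0435). With all libraries it held 1101, 1172 and 935 CPM in WT and 1159, 1574 and 1678 CPM in KO, a log2 fold change of 0.46 ± 0.12 (SE) (adjusted p = 0.29). Gm14023 and 4931431C16Rik were singled out here for these calls, after their values were seen.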

How the data were processed

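RNA of 12 bone-marrow-derived macrophage libraries was measured: WT and KO, M0 and M1, 3 of each. Strand-specific TruSeq libraries of polyadenylated RNA were read on a NovaSeq, per the labels' protocols. Raw whole-number counts for each gene symbol and library were deposited by the authors. HTSeq, Trimmomatic, FastQC, DESeq2 and mm10 are named per the submitters' processing notes. Aligner, annotation and strand setting are not given in the sources used here.

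Rows were tested with edgeR 4.0.16 in R 4.3.3 on all 12 libraries in 4 groups: filterByExpr, TMM factors, a robust quasi-likelihood fit, and Benjamini-Hochberg adjustment over 2333 rows, called at 0.05. CPM values carry the TMM factors, except the group value and the limit given for Gpr31b, which use library size alone. Standard errors came from the fitted model, and 95% intervals from its spread and degrees of freedom. The steps were tested on simulated counts. DESeq2 1.42.0 and limma 3.58.1 (voom) were alternatives, beside other scalings, filters, library subsets and a replicate block. Intervals cover the spread between libraries and counting error. Without molecular identifiers, PCR copies are not independent. In the M1 libraries, 62.4% of the counts from 1 to 12 were even. Limits on a count of 0 may therefore be too low.

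Symbols were matched to GENCODE M21 (24096 rows, 135 by an older symbol, 87.5% of M1 counts). Exons of 2 genes on opposite strands counted as overlapping at 20 or more bases. The table had 26 symbols turned into dates, which held 0.0104% of the counts of all 12 libraries and kept their place in the totals.

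The main test was unpaired, and the replicate numbers paired the libraries only in the block fits and the differences by number. Deviations from the group means were compared between libraries with the same number, across 821 rows. They correlated at 0.239, 0.611 and 0.197 in M1 and at 0.110, 0.449 and 0.174 in M0. The labels state no shared animal or day. In M1, WT replicate 1 correlated more with KO replicate 3 (0.315) and WT replicate 3 more with KO replicate 1 (0.333) than with their own numbers.

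Named rows were Gpr31b, the 20 highest M1 rows, the 8 lowest p in each direction with 5 CPM or more and no overlap (provisional symbols skipped), up to 5 highest rows per inflammatory list, the lowest p of these lists in each direction, and rows called in M0. Others were named as examples of their list or after their values were seen. Some rows that this rule covers are not reported here. The members and lists were chosen with earlier results of these data known.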

Additional observations from a re-analysis of the deposited data

How the results depend on the processing

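Low counts limit these results. Below 30 CPM, intervals spanned a median of 3.15-fold in each direction, so a 2-fold effect on most low rows was not detectable. Whether depth or the strand counted keeps these rows low was not tested. The model called 0 rows in either direction under all alternatives run, except the replicate block in the 6 M1 libraries, where 2 rows were lower in KO (Gm14023 and Mid1), and without KO replicate 1, where 1 was higher (4931431C16Rik). With 1 library left out at a time, rows called higher ran from 0 to 1 and rows called lower stayed at 0, inflammatory rows bounded within 2-fold ran from 21 to 27 (34 with all libraries), and the median inflammatory log2 fold change ran from −0.18 to −0.0033. Under the planned scalings, filters, tools, blocks and the fit of the 6 M1 libraries alone, 29 to 47 inflammatory rows were bounded within 2-fold. Without the 2 M1 libraries with Xist-locus counts, an alternative chosen after seeing the data, 20 inflammatory rows were bounded and the median was −0.18, with fewer libraries in the fit. The Xist-locus state as a covariate, also added later, called 0 rows. The replicate block changed no other call. Of 1443 values of 86 named rows over 17 settings, 1440 kept their side of the threshold and 3 passed it. In 30 of the rows the sign changed under some setting, 70 values in all, and none of these rows had a log2 fold change above 0.46 in size. Unfiltered, 11497 rows were tested and 0 were called.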

Other observations

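Gm2518, a row that was not matched to the annotation and was singled out after its values were seen, held 932, 713 and 975 CPM in WT and 597, 606 and 656 CPM in KO. The groups did not overlap, and the log2 fold change was −0.50 ± 0.15 (SE) (adjusted p = 0.373, edgeR). Fdft1, opposite the cathepsin B gene Ctsb, was at 4439, 4123 and 5878 CPM in WT and 4151, 4615 and 4869 CPM in KO and at 26899 to 31298 CPM in M0, and its genotype interval in M1 allowed a 1.09-fold rise or a 1.22-fold fall. Of 23279 counts from 1 to 12 in the 6 M1 libraries, 14528 (62.4%) were even. The Tsix row, opposite Xist, held counts in replicate 2 of every group, 855 in WT M0 and 1150 in KO M0, and no more than 2 in any other library.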
